A study of Homo sapiens with 6 samples.

Results

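The NF-κB transcription factor subunits and the genes that hold them in check were examined in NB4 cells treated with Tanshinone I (Tan I) or with the solvent DMSO. The members are a fixed list of gene symbols, proposed with earlier results of these data known. They are the 5 Rel/NF-κB subunits (NFKB1, NFKB2, REL, RELA and RELB), 3 IκB proteins (NFKBIA, NFKBIB and NFKBIE), the ubiquitin-editing inhibitor TNFAIP3 and the IκB kinase IKBKB. All 10 were among the 18625 genes of the table, and all 10 passed the filter of a mean of 10 normalized counts that left 16887 genes for testing. NB4 is an established human line from an acute promyelocytic leukaemia. Tan I is a lipophilic compound from the root of Salvia miltiorrhiza (Dan-shen). Total RNA was sequenced from 3 libraries of cells kept for 3 days in 10 μM Tan I and from 3 libraries of cells kept for the same time in DMSO, so the groups shared cell line, medium and duration and differed in the compound. A single cell line at a single dose and time limits the comparison, and the sources do not say whether the 3 libraries of a group came from separate cultures. The p-values therefore measure the spread between these libraries, which may be technical.

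NF-κB dimers are made from 5 related proteins. RELA, REL and RELB carry a transactivation domain, whereas NFKB1 and NFKB2 encode the precursors p105 and p100, which are processed to the DNA-binding subunits p50 and p52. In resting cells the IκB proteins hold the dimers in the cytoplasm. Receptor signals activate the IκB kinase complex, which phosphorylates IκB for ubiquitination and degradation and so frees the dimers. Several genes of the system are themselves classical NF-κB targets. NFKBIA (IκBα) and TNFAIP3 (A20) close negative feedback loops, and NFKB1, NFKB2, REL and RELB are induced as well. In myeloid cells the pathway is known for the induction of chemokines, adhesion molecules and survival genes.

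Because several members are known targets of the factor they form or restrain, the 250 bases upstream of each RefSeq start site (GRCh38.p14) were searched on both strands for the kappaB consensus, the 10-base DNA sequence that NF-κB dimers bind. The promoter table held 7 of the 10 members with 12 start sites. It held no entry for RELB, NFKBIE or IKBKB. At least 1 match lay upstream of 7 of the 12 member start sites, belonging to 6 of the 7 members, and RELA had none in these windows. Across all promoters that the table lists, 1828 of 35116 (5.21%) held a match. The windows are given 5′ to 3′ on the strand of the gene, with the bases of the match, or of matches that overlap each other, in capitals. They show the matches to the consensus in the 2 members called below (NFKB2 and NFKBIA) and in 4 members not called. Whether a match bears on a call was not tested.
NFKBIA, chr14:35404812-35404839, minus strand: gactggcttGGAAATTCCCcgagcctga
NFKB2, chr10:102394462-102394490, plus strand: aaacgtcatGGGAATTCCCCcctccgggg
NFKB2, chr10:102394491-102394518, plus strand: ggccgagaaGGGGCTTTCCcggccctga
NFKB2, chr10:102395520-102395547, plus strand: acccccaccGGGGCTTCCCggattctcc
NFKB2, chr10:102395675-102395702, plus strand: ggtattttcGGGACTTTCCtaagctgct
NFKB1, chr4:102501301-102501328, plus strand: gacgtcagtGGGAATTTCCagccaggaa
REL, chr2:60881518-60881546, plus strand: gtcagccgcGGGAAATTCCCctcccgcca
NFKBIB, chr19:38899932-38899960, plus strand: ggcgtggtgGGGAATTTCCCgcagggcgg
TNFAIP3, chr6:137867183-137867210, plus strand: cgtgactttGGAAAGTCCCgtggaaatc
TNFAIP3, chr6:137867195-137867222, plus strand: aagtcccgtGGAAATCCCCgggcctaca

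The capitals began 81 bases upstream of the start site in NFKBIA, 49 in NFKB1 and 47 in REL. In NFKB2 the first pair of windows lay 107 and 78 bases upstream of the second of its 3 start sites and within an exon of another NFKB2 isoform, and the second pair lay 176 and 21 bases upstream of the third, the former in an intron of NFKB2. In NFKBIB the match lay 28 bases upstream of the second of 2 start sites, and in TNFAIP3 the matches lay 67 and 55 bases upstream. The NFKBIA window overlapped no annotated gene of GENCODE 44. The REL window fell on exonic bases of the GENCODE model, which starts further upstream than the RefSeq model. The same 10 bases, GGGAATTTCC, read on either strand, occurred in 4 members (NFKB1, REL, NFKBIA and NFKBIB) and in 50 of all 35116 promoters (0.142%). TNFAIP3 and NFKB2 shared GGGACTTTCC, found in 63 promoters. Both sequences were picked from the members' own windows, and members are counted as genes but promoters as start sites. These counts therefore do not measure enrichment. A looser pattern that fixes only the leading G and trailing C bases was found upstream of 11 of the 12 member start sites. These belonged to all 7 members that have an entry, and 54.4% of all promoters held the pattern. A match is a description of these letters and not evidence of binding.

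The libraries held 25356503 to 31679138 reads on the listed genes in DMSO and 21502760 to 24298627 in Tan I. The line was recognisable by its promyelocyte markers: 6 of 7 (MPO, AZU1, PRTN3, CTSG, CD33 and CEBPE) were in the table, ELANE was not, and their summed level was 71171 to 77317 normalized counts in DMSO and 42027 to 50381 in Tan I. Most of that sum was MPO, at 60389 to 64107 in DMSO and 33279 to 39450 in Tan I. MPO and CTSG were called lower by the unadjusted rule used below, with log2 fold changes of −0.78 and −0.69, whereas AZU1 (−0.25), PRTN3 (−0.32), CEBPE (−0.12) and CD33 (0.07) were not called and overlapped between the groups. Of the markers of other lineages, the macrophage genes CD14 and CSF1R summed to 21.9 to 31.8 in DMSO and 29.5 to 45.0 in Tan I, and CD163, MRC1 and MSR1 were not in the table. Markers of T cells (2 of 3 listed, 257 to 415 against 282 to 527), B cells (2 of 3, 170 to 179 against 159 to 172), erythroid cells (1 of 3, 15.4 to 51.3 against 10.7 to 28.3) and fibroblasts (1 of 3, 74.2 to 120 against 65.5 to 112) overlapped between the groups. Of 3 megakaryocyte and platelet markers only ITGA2B was in the table, at 1060 to 1127 against 1332 to 1418, and it was called higher (log2 fold change 0.35, PF4 and PPBP not in the table). In bulk RNA fewer cells of a type and less RNA per cell cannot be told apart, and the part of the lower MPO and CTSG or of the higher ITGA2B in any result given here was not tested. The first principal component of all tested genes held 70.8% of the variance and did not follow the treatment: DMSO replicate 2 and Tan I replicates 2 and 3 had positive scores, and the other 3 libraries had negative scores.

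The comparison of Tan I with DMSO asked which subunits and inhibitors differed in mRNA level after treatment. NFKB2 and NFKBIA were higher in Tan I, by 1.25-fold and 1.33-fold in the ratio of means, and were the 2 of 10 members (20%) that met the call rule of an unadjusted limma p of at most 0.05 with a log2 fold change of at least 0.25 in size. By the same rule 408 of 16887 genes (2.42%) were called, 223 (1.32%) higher and 185 (1.1%) lower. After Benjamini-Hochberg adjustment over all genes tested, limma called no member and no other gene (0%), with an adjusted p of 0.999 for each member. On reads recovered from the table, edgeR and DESeq2 also called 2 members without adjustment and 0 with it, while DESeq2 called 16 other genes after adjustment. The 10 log2 fold changes ran from −0.58 to 0.39 with a median of 0.11, against a median of −0.0016 over all genes tested. Group means were higher in Tan I for 7 members and lower for 3, against 49.7% higher over all genes tested. The Tan I libraries lay entirely above the DMSO libraries for 2 members, NFKB2 and RELA, and the opposite held for 0. Over all genes 3.92% were apart on the higher side, 3.97% on the lower and 7.89% on either.

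**Figure D1:**
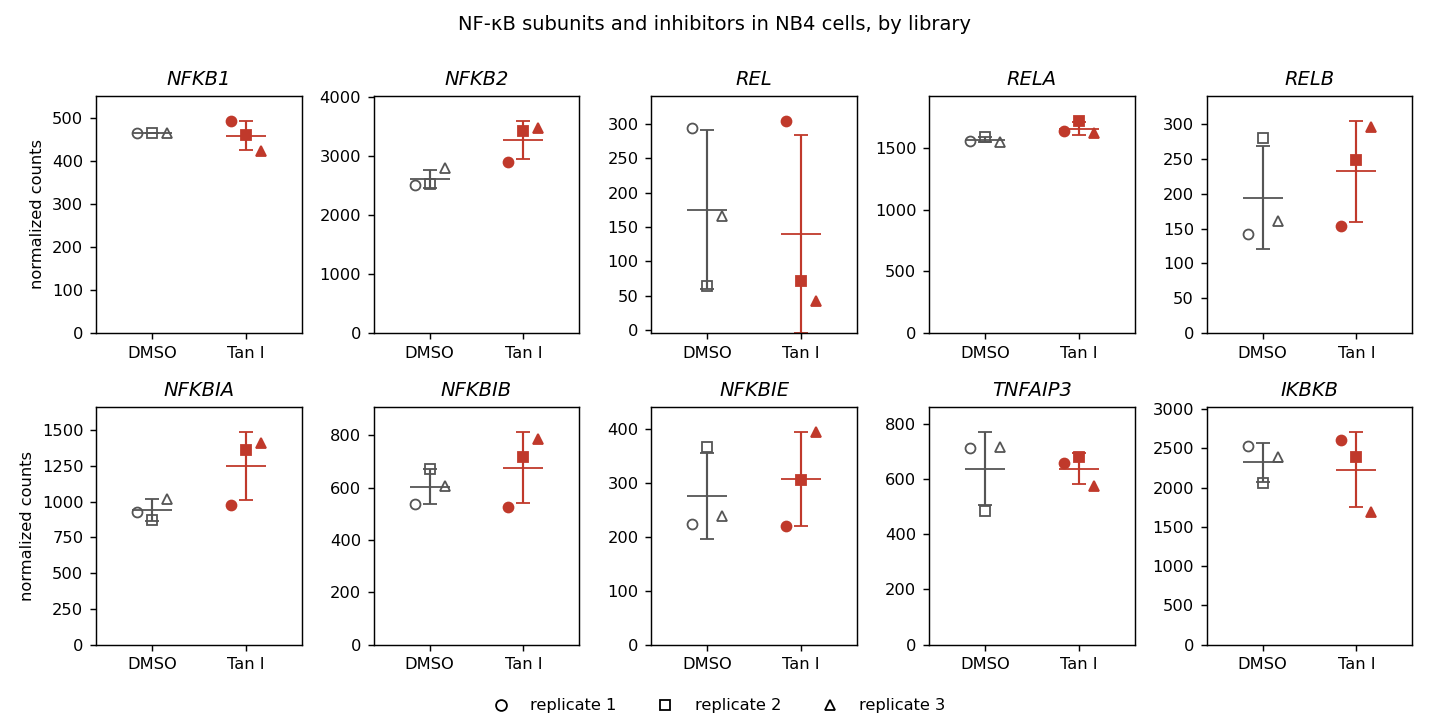
Normalized counts (y axis, separate scale per gene) of the 10 members in the DMSO and Tan I libraries, with a point per replicate and a bar for the mean ± SD (n = 3). NFKB2 is the clearest separation, 2516 to 2792 in DMSO against 2899 to 3482 in Tan I, while REL ranges from 42.7 to 305 within Tan I.

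NFKB2, on chromosome 10 (chr10:102394110-102402524, plus strand, 23 exons, GRCh38), encodes p100, which is both an inhibitor of RELB dimers and the precursor of p52. It stood at 2516, 2529 and 2792 normalized counts in DMSO replicates 1 to 3 and at 2899, 3427 and 3482 in Tan I replicates 1 to 3. Every Tan I library lay above every DMSO library, and Tan I replicate 1 lay nearest to DMSO. The means were 2612 ± 156 and 3269 ± 322 (SD, n = 3), from 2611 to 3573 reads per library. Tan I exceeded DMSO by 0.32 ± 0.12 on the log2 scale (SE; 95% confidence interval 0.04 to 0.60), with a limma p of 0.0301 before and 0.999 after adjustment. The exact two-sided permutation p was 0.1, the smallest that 3 against 3 allows. The call was lost when DMSO replicate 1, DMSO replicate 2, Tan I replicate 2 or Tan I replicate 3 was left out, with the log2 fold change between 0.27 and 0.40 over the 6 omissions.

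RELA (p65), the main transactivating subunit of canonical dimers, lies on chromosome 11 (chr11:65653599-65663090, minus strand, 11 exons). Its normalized counts were 1556, 1585 and 1549 in DMSO and 1633, 1715 and 1615 in Tan I. The groups did not overlap, but the step was small, from 1563 ± 19.4 to 1654 ± 53.1 (SD, n = 3). On the log2 scale the difference was 0.08 ± 0.10 (SE) with an interval of −0.15 to 0.31 and a limma p of 0.437. The exact two-sided permutation p was 0.1. RELA was also among the steadiest genes within groups, with a standard deviation of 0.035 on the log2 scale, above that of 0.409% of all genes tested.

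NFKB1 (chr4:102501330-102617302, plus strand, 24 exons), the gene of p105 and p50, was at 466.2, 465.2 and 466.5 normalized counts in DMSO and at 493.6, 460.6 and 425.4 in Tan I. The DMSO values fell within the Tan I range. Their coefficient of variation was 0.143%, whereas counting error at 483 to 597 reads would alone give about 4.36%, so these 3 values lay closer together than counting error alone would place them. The fitted log2 difference was −0.02 ± 0.12 (SE), with an interval of −0.30 to 0.26 (limma p = 0.862, exact permutation p = 0.7).

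REL and RELB were the subunits that varied most between replicates. REL (chr2:60881491-60931612, plus strand, 10 exons), the c-Rel subunit of lymphoid and myeloid cells, was at 295, 63.6 and 166 normalized counts in DMSO and at 305, 70.6 and 42.7 in Tan I. The first replicate was the highest of each group and the groups overlapped almost entirely. Within DMSO the highest library was 4.64 times the lowest, and within Tan I 7.15 times, on 32 to 316 reads per library. The coefficients of variation were 66.2% and 103%, against 7.10% and 8.54% from counting alone. The within-group standard deviation of 1.30 on the log2 scale was larger than that of 97.7% of all genes tested and of 99.0% of the 1737 genes within 1.5-fold of its mean. In limma REL had the largest log2 fold change in size of the members, −0.58 ± 0.79 (SE), with an interval of −2.44 to 1.28 (limma p = 0.487, exact permutation p = 0.8). On recovered reads it was −0.31 with edgeR and −0.32 with DESeq2, smaller in size than that of NFKBIA, and it was −0.055 with the score on the first principal component in the fit. It moved to 0.0070 without Tan I replicate 3, and to −1.40 at the other extreme of the omissions. Of the REL exons 5702 bases (33.3%) are shared with a lncRNA on the same strand, ENSG00000267520, that was not in the table, and how such reads were assigned is not given in the sources used here.

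RELB (chr19:45001461-45038192, plus strand, 12 exons), the subunit that pairs with p52 in the noncanonical pathway, was at 143, 279 and 161 normalized counts in DMSO and at 153, 248 and 295 in Tan I. The groups overlapped, and the first replicate of each was its lowest. RELB had a log2 fold change of 0.27 ± 0.33 (SE), with an interval of −0.50 to 1.04 (limma p = 0.442, exact permutation p = 0.6). RELB ordered the 6 libraries exactly as the first principal component did. REL was lower, and RELB, NFKBIB and NFKBIE higher, in all 3 libraries with positive scores than in the other 3. The same order held for NFKB1 as for REL. It rested on 465.2 normalized counts in DMSO replicate 2 against 466.2 in DMSO replicate 1, which is within counting error. The part of this gradient in the differences of single members was not tested beyond the fit that held the score as a covariate, in which the log2 fold change of RELB was 0.06.

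**Figure D2:**
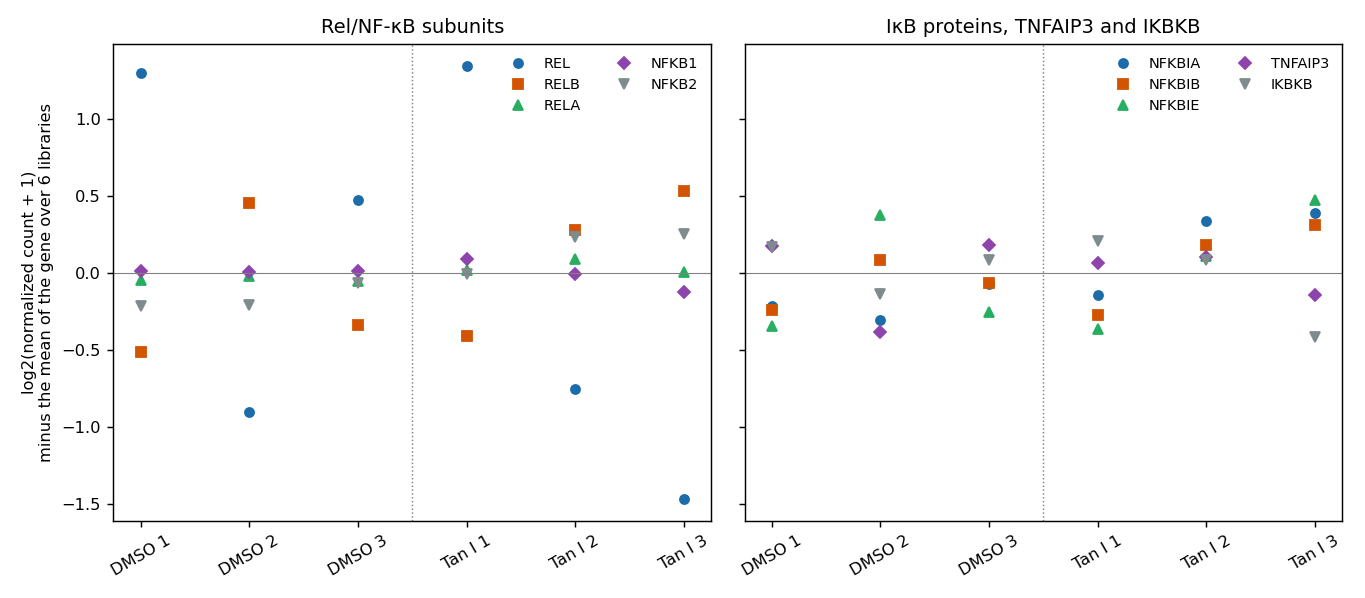
Log2(normalized count + 1) of each member minus its mean over the 6 libraries (y axis), by library (x axis; DMSO replicates left of the dotted line, Tan I replicates right of it). REL spans from −1.46 to 1.34 and is opposite in sign to RELB in each library, while RELA stays between −0.05 and 0.09.

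Among the inhibitors, NFKBIA (IκBα; chr14:35401079-35404749, minus strand, 6 exons), the rapidly resynthesised inhibitor of RELA dimers, was at 929, 870 and 1022 normalized counts in DMSO and at 974, 1360 and 1411 in Tan I. Tan I replicates 2 and 3 were above every DMSO library, whereas Tan I replicate 1 lay inside the DMSO range. The means were 940 ± 76.8 and 1248 ± 239 (SD, n = 3), from 903 to 1308 reads per library. On the log2 scale Tan I exceeded DMSO by 0.39 ± 0.17 (SE; 95% confidence interval 0.0023 to 0.78), with a limma p of 0.049 before and 0.999 after adjustment. The exact two-sided permutation p was 0.2. The call was lost under every omission of a single library except that of Tan I replicate 1, where the log2 fold change rose to 0.56; the lowest value over the omissions was 0.29.

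NFKBIB (IκBβ; chr19:38899700-38908893, plus strand, 6 exons), a slower inhibitor of the same dimers, was at 536, 671 and 606 normalized counts in DMSO and at 525, 718 and 787 in Tan I. The groups overlapped, since Tan I replicate 1 was the lowest of the 6 libraries. Its log2 fold change was 0.15 ± 0.18 (SE), with an interval of −0.28 to 0.57 (limma p = 0.442, exact permutation p = 0.5). NFKBIE (IκBε; chr6:44258166-44265788, minus strand, 6 exons), a further IκB of haematopoietic cells, was at 223, 367 and 238 in DMSO and at 220, 306 and 393 in Tan I. Its range in each group covered most of the other. NFKBIE had a log2 fold change of 0.15 ± 0.27 (SE), with an interval of −0.49 to 0.79 (limma p = 0.604, exact permutation p = 0.8).

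TNFAIP3 (A20; chr6:137867214-137883314, plus strand, 9 exons) edits ubiquitin chains on adaptors upstream of the IκB kinase and so ends the signal. Its normalized counts were 712, 484 and 716 in DMSO and 660, 680 and 573 in Tan I. The means were 638 ± 133 and 638 ± 56.5 (SD, n = 3), with all Tan I libraries inside the DMSO range. Its log2 fold change of 0.02 ± 0.18 (SE) had an interval of −0.41 to 0.44 (limma p = 0.918, exact permutation p = 1), and its sign turned when all libraries were rescaled to the same total. IKBKB (IKKβ; chr8:42271302-42332460, plus strand, 22 exons), the kinase that phosphorylates IκB in the canonical pathway, was at 2535, 2053 and 2386 in DMSO and at 2605, 2390 and 1692 in Tan I. Both the highest and the lowest library were Tan I libraries. IKBKB had a log2 fold change of −0.08 ± 0.18 (SE), with an interval of −0.50 to 0.35 (limma p = 0.676, exact permutation p = 0.9). The intervals of the 8 members not called do not show that these genes were alike in the groups, and the interval of REL reached furthest from 0.

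**Figure D3:**
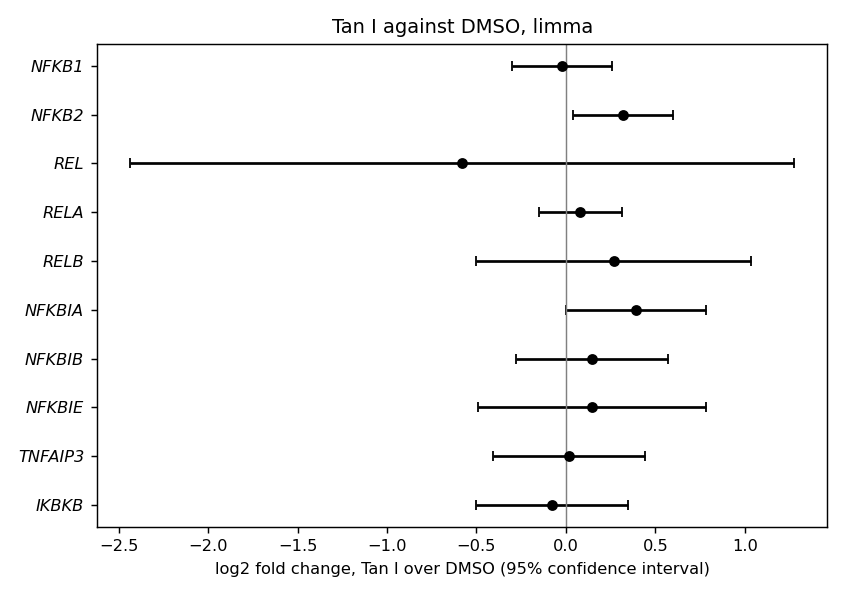
Fitted log2 fold change between Tan I and DMSO (x axis; higher in Tan I to the right) for each member, with the 95% confidence interval from limma (n = 3 libraries per group). The intervals of NFKB2 (0.04 to 0.60) and NFKBIA (0.0023 to 0.78) lie above 0, and the interval of REL (−2.44 to 1.28) is the widest.

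Per kilobase of annotated exon, NFKB2 was the most abundant member and REL the least. For NFKB2 the DMSO mean was 468 ± 27.9 normalized counts per kb and the Tan I mean 586 ± 57.7 (SD, n = 3), above every other member in every library. RELA followed at 287 ± 3.55 and 303 ± 9.73, NFKBIA at 277 ± 22.6 and 368 ± 70.3, NFKBIB at 260 ± 29.1 and 291 ± 58.4 and IKBKB at 210 ± 22.3 and 202 ± 43.2. The ranges of RELA, NFKBIA and NFKBIB overlapped over the libraries, as did those of NFKBIB and IKBKB, so their order is not resolved beyond the spread. The lowest IKBKB library (153) lay close to the highest of NFKBIE (152). NFKBIE (107 ± 30.7 and 119 ± 33.6), TNFAIP3 (98.9 ± 20.6 and 99.0 ± 8.77) and RELB (64.8 ± 24.8 and 77.4 ± 24.0) overlapped in the same way. NFKB1 was below these at 29.7 ± 0.0426 and 29.3 ± 2.17, and REL was lowest at 10.2 ± 6.76 and 8.14 ± 8.41, with no overlap of NFKB1 with either neighbour. With the longest transcript as the length in place of all exons, NFKB2 stayed first and RELB, NFKB1 and REL last in both groups. IKBKB moved to the third place in DMSO and the fourth in Tan I. By that length NFKB1 (60.4 to 70.1 over the libraries) overlapped RELB (63.2 to 131). The order of their means was the same by either length, but whether their ranges lie apart depends on the length used.

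**Figure D4:**
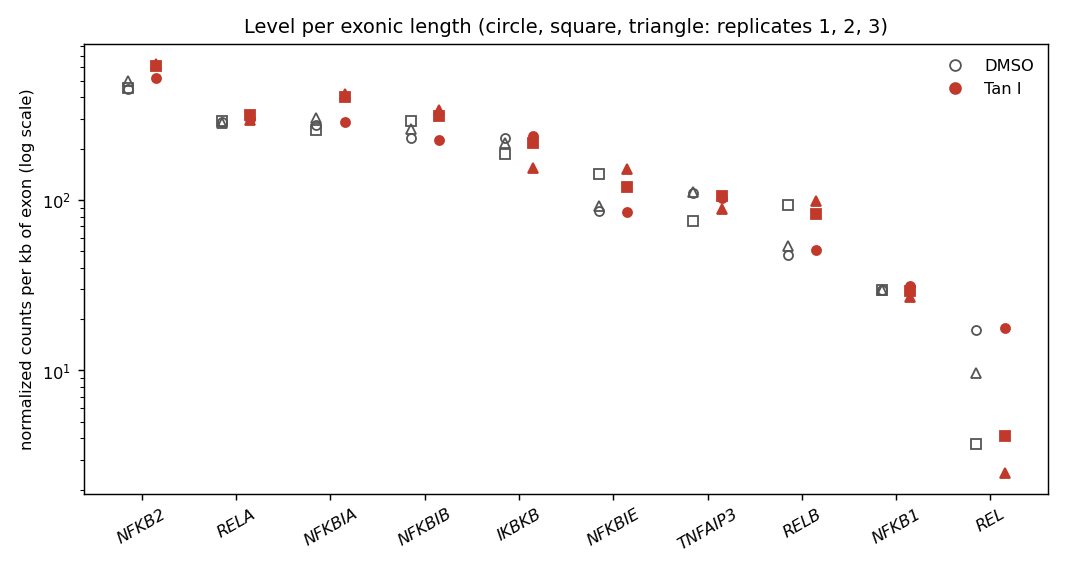
Normalized counts per kb of exon (y axis, log scale) of the 10 members, ordered by their DMSO mean, with a point per library (circle, square and triangle for replicates 1, 2 and 3) in DMSO and Tan I. NFKB2 lies between 451 and 624 in all 6 libraries and REL between 2.49 and 17.8.

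Of the summed level of the 5 subunits per kb, NFKB2 held 54.3%, 52.1% and 57.0% in DMSO and 56.5%, 58.8% and 59.5% in Tan I. RELA held 34.3%, 33.4% and 32.4% in DMSO and 32.6%, 30.1% and 28.3% in Tan I. These shares overlapped between the groups in both genes. RELB held 5.57% to 10.7% over the 6 libraries, NFKB1 2.59% to 3.58% and REL 0.238% to 2.07%. With the longest transcript as the length, RELB held 4.45% to 8.62%, NFKB1 3.51% to 4.79% and REL 0.220% to 1.89%. By mRNA, the subunits in these cells were therefore mostly NFKB2 and RELA in both groups.

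Ratios within a library do not depend on its size factor. The log2 ratio of NFKBIA to RELA, the inhibitor to the subunit it retains, was −0.74, −0.87 and −0.60 in DMSO and −0.75, −0.33 and −0.19 in Tan I. Replicates 2 and 3 of Tan I were above all DMSO libraries and replicate 1 was not, with means of −0.74 ± 0.13 and −0.42 ± 0.29 (SD, n = 3). The log2 ratio of NFKB2 to NFKB1 was 2.43, 2.44 and 2.58 in DMSO and 2.55, 2.90 and 3.03 in Tan I, again with only the first Tan I replicate inside the DMSO range. The ratio of TNFAIP3 to RELA, from −1.71 to −1.11 in DMSO and from −1.49 to −1.31 in Tan I, lay inside the DMSO range in every Tan I library.

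The genes with profiles most like that of REL over the 6 libraries, by the root mean square difference of centred log2 values, were AC004492.1 (0.15), AD000813.1 (0.16) and LINC02175 (0.17). AC004492.1 was at 97.9, 23.1 and 75.0 normalized counts in DMSO and at 109, 29.5 and 17.3 in Tan I. The 3 genes, like REL, were highest in replicate 1 of each group and lowest in Tan I replicate 3, which follows from how they were picked. AD000813.1 was low, at 2.67 to 31.3 normalized counts.

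A further 80 genes of the pathway were read from lists of partners, upstream components and targets, of which 73 were in the table and 71 were tested. Of these, 6 were called higher and 1 lower by the unadjusted rule (9.86%, against 2.42% of all genes), and 0 after adjustment by limma. The lists were chosen with earlier results of these data known and include MMP9, so the 2 shares cannot be compared as independent evidence. The groups did not overlap for 8 genes higher and 2 lower in Tan I, against 3.92% and 3.97% of all genes. The median log2 fold change of the 71 was 0.05. The calls fell in 2 of the 7 lists, the targets and the upstream components.

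Target genes gave the higher calls CXCL8, MMP9, BIRC3 and ICAM1, 4 of 28 tested (14.3%), with 0 lower. Over all genes 1.32% were called higher and 1.1% lower. CXCL8, the neutrophil chemokine interleukin-8, was at 2143, 1526 and 2178 normalized counts in DMSO and at 2693, 3407 and 3415 in Tan I. Its log2 fold change was 0.71 ± 0.18 (SE), with a limma p of 0.0045 before and 0.999 after adjustment. MMP9, a gelatinase of granulocytes, was at 623, 751 and 687 in DMSO and at 868, 1031 and 1210 in Tan I, a log2 fold change of 0.58 ± 0.15 (SE), with an unadjusted limma p of 0.0063. The study picked MMP9 among genes that differed both in these libraries and in treated zebrafish embryos. Its call here is therefore not independent evidence. BIRC3, the apoptosis inhibitor cIAP2, was at 45.7, 79.9 and 64.9 in DMSO and at 94.8, 93.8 and 108 in Tan I, a log2 fold change of 0.66 ± 0.25 (SE), with an unadjusted limma p of 0.031. ICAM1, an adhesion molecule, was at 242, 381 and 291 in DMSO and at 406, 430 and 487 in Tan I, a log2 fold change of 0.55 ± 0.19 (SE), with an unadjusted limma p of 0.022. In these 4 genes every Tan I library was above every DMSO library, with an exact permutation p of 0.1 each. The calls of CXCL8 and MMP9 held under all 17 alternative settings, whereas BIRC3 and ICAM1 were each lost without DMSO replicate 1, DMSO replicate 3, Tan I replicate 2 or Tan I replicate 3.

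The other 24 targets tested were not called. The targets had a median log2 fold change of 0.23 and ran from −0.33 (CXCL2) to 0.98 (CCL2). In Tan I 23 group means were higher and 5 lower, against 49.7% higher over all genes tested. CCL2, a monocyte chemokine named here after its values were seen, was at 21.4, 44.3 and 21.1 in DMSO and at 33.2, 61.1 and 80.0 in Tan I, with overlapping groups and an unadjusted limma p of 0.055. It met the call rule under 6 of 16 alternatives. The most abundant targets were CCL5, a T cell and monocyte chemokine, with a log2 fold change of 0.25 ± 0.21 (SE), and CD44, the hyaluronan receptor, with −0.07 ± 0.18 (SE). IL6, CXCL1, VCAM1, SELE and PTGS2 were not in the table, and TNFRSF9 was below the filter.

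Upstream of the kinase, 3 of 20 tested receptors and adaptors were called (15%, against 2.42% of all genes). TNFRSF1B, the second TNF receptor, was at 29.8, 25.0 and 17.2 normalized counts in DMSO and at 35.2, 47.4 and 41.3 in Tan I, a log2 fold change of 0.78 ± 0.30 (SE), with an unadjusted limma p of 0.035, on 22 to 45 reads per library. RBCK1 (HOIL-1), a subunit of the linear ubiquitin ligase, was at 6108, 6365 and 6527 in DMSO and at 6996, 8539 and 8628 in Tan I, a log2 fold change of 0.34 ± 0.13 (SE), with an unadjusted limma p of 0.029. MYD88, the adaptor of Toll-like and interleukin-1 receptors, was at 215, 254 and 202 in DMSO and at 161, 150 and 188 in Tan I, a log2 fold change of −0.43 ± 0.17 (SE), with an unadjusted limma p of 0.038. It was the 1 gene called lower. In each of the 3 genes the groups did not overlap and the adjusted limma p was 0.999. With single libraries left out, the call of RBCK1 held only without Tan I replicate 1, that of MYD88 only without Tan I replicate 3, and that of TNFRSF1B only without DMSO replicate 1 or Tan I replicate 1. Their log2 fold changes over the omissions ran from 0.29 to 0.44, from −0.52 to −0.33 and from 0.57 to 0.95. With the replicate number as a block, MYD88 (p = 0.0762) and TNFRSF1B (p = 0.0582) were not called either in limma, and the exact permutation p was 0.1 in each. IRAK1, the most abundant of the rest of this list, had a log2 fold change of 0.05 ± 0.12 (SE), and the median of the list was −0.03.

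The remaining lists gave no call. The partners of IKBKB and the related kinases (4 tested) had a median log2 fold change of −0.0092, with CHUK (IKKα) at −0.02 ± 0.11 and TBK1 at 0.11 ± 0.12 (SE). The nuclear IκB proteins (3 tested) had a median of 0.30. NFKBID was at 0.30 ± 0.16 and NFKBIZ at −0.31 ± 0.31 (SE). BCL3, the remaining gene, had a log2 fold change of 0.62 ± 0.27 (SE), with an unadjusted limma p of 0.054. It met the call rule with a pseudocount of 10, with edgeR, with eBayes without the trend, with the score on the first principal component in the fit and without Tan I replicate 1. It rests on 29 to 47 reads, at 27.04, 31.8 and 26.6 normalized counts in DMSO and 34.2, 49.5 and 50.7 in Tan I, without overlap. The partners of A20 and the deubiquitinases (8 of 9 tested, TNIP3 not in the table) had a median of −0.00067, with TAX1BP1 at 0.06 ± 0.12 and OTULIN at −0.08 ± 0.21. The noncanonical pathway (3 of 4 tested, CD40 below the filter) had LTBR at 0.16 ± 0.13 and TRAF3 at −0.01 ± 0.11. The ubiquitin ligase of IκB (5 tested) had SKP1 at 0.32 ± 0.23 and RBX1 at 0.21 ± 0.22.

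**Figure D5:**
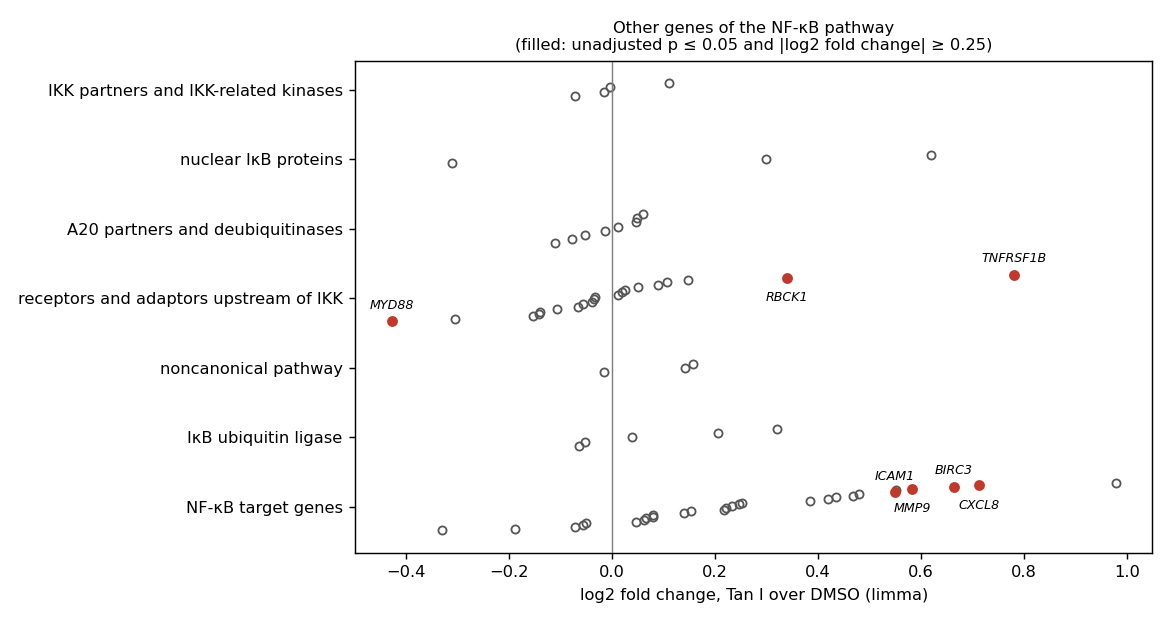
Fitted log2 fold change between Tan I and DMSO (x axis; higher in Tan I to the right) for the tested genes of the 7 further pathway lists (y axis), with a point per gene, filled where the unadjusted call rule was met. The filled points are 4 targets, all right of 0, and 3 upstream components, of which MYD88 lies left of 0.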

How the data were processed

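Total RNA of NB4 cells was sequenced from 3 DMSO and 3 Tan I libraries. Per the labels, the authors used STAR, featureCounts and DESeq2 with GRCh38, and no versions, annotation release or strand setting are given in the sources used here. The deposited signal of each gene is a read count divided by the size factor of its library (normalized count). At a tolerance of 0.01 reads, 100% of these values gave back whole reads. The deposited columns of the authors' own comparison (mean, fold change, standard error, test score, p and adjusted p) were not used. Gene IDs matched GENCODE 44 for 18550 of 18625 genes (99.6%), from which positions and exon lengths were taken.

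The comparison was fitted in R 4.3.3 with limma 3.58.1 (eBayes with trend) on log2(normalized count + 1), so that fold changes of low genes are understated, for genes with a mean of at least 10. Benjamini-Hochberg adjustment ran over all genes tested. A call needed a p of at most 0.05 and a log2 fold change of at least 0.25 in size. Single genes were also tested by an exact two-sided permutation test. edgeR 4.0.16 (quasi-likelihood) and DESeq2 1.42.0 on the recovered reads were alternatives, calling 409 and 420 genes without adjustment and 0 and 16 with it (3602 adjusted p from DESeq2 were not given). The fit was tested on simulated reads drawn for each gene independently. They lacked the gradient of the first principal component, so that test does not cover its effect on the p-values. The members and gene lists were chosen with earlier results of these data known. The genes named are the 10 members, the called genes (at most 6) and the 2 with the highest mean of each list, and the 3 genes most like the member with the largest fold change in size in limma. BCL3, CCL2 and CXCL2 were added after their values were seen. The κB search covered 250 upstream bases of RefSeq promoters, and matches may overlap. Antisense genes share exon bases with RELA (1.89% of its exon length), NFKBIB (1.72%) and TNFAIP3 (1.47%).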

Additional observations from a re-analysis of the deposited data

How the results depend on the processing

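Over 17 alternatives, 145 of 170 member log2 fold changes kept direction and side of the threshold, 12 lost a call and 13 changed sign. Only NFKB2 and NFKBIA had a call to lose, and lost it under 5 and 7 of the 17 alternatives. The number of members called without adjustment (2) was 1 after rescaling each library to the same total, which moved the median of all genes by −0.06 and the split of all calls from 223 higher and 185 lower to 188 and 250. It was 0 with eBayes without the trend, and 0 to 2 with single libraries left out, 0 without DMSO replicate 1, DMSO replicate 2, Tan I replicate 2 or Tan I replicate 3 and 1 without DMSO replicate 3. No alternative called a member after adjustment; adjusted p ranged from 0.0697 to 1 for NFKB2 and from 0.15 to 1 for NFKBIA. The members' median log2 fold change was 0.0545 with equal totals, 0.0582 with the score on the leading principal component as a covariate, and 0.0703 to 0.205 with single libraries left out (0.205 without Tan I replicate 1). The other pathway genes called (7) became 14 with that covariate, 3 of them also after adjustment (CXCL8, MMP9 and RBCK1), and 2 to 11 with single libraries left out: 2 without Tan I replicate 2, 3 without DMSO replicate 1, DMSO replicate 3 or Tan I replicate 3, and 11 without Tan I replicate 1. With that covariate 1496 genes were called, 194 after adjustment. The score was computed from the same values that were then tested, so the p-values of that fit may be too small. Called genes over all 16887 numbered 160 to 1496 with single libraries left out. The cause was not tested.

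Signs turned for TNFAIP3 at −0.040 with equal totals, −0.0020 with edgeR and −0.0017 with DESeq2, and ran from −0.17 to 0.11 with single libraries left out. With the covariate the values were 0.0037 for NFKB1, −0.020 for NFKBIE, 0.023 for IKBKB, 0.013 for CHUK, 0.054 for OTULIN and 0.013 for TRAF3. IRAK1 was at −0.026 with quantile normalization and −0.0085 with equal totals. With single libraries left out the ranges were −0.074 to 0.033 for NFKB1, −1.40 to 0.0070 for REL, −0.052 to 0.37 for NFKBIE, −0.20 to 0.11 for IKBKB, −0.073 to 0.023 for CHUK, −0.55 to 0.0028 for NFKBIZ, −0.25 to 0.072 for OTULIN, −0.079 to 0.030 for TRAF3, −0.21 to 0.079 for CD44 and −0.67 to 0.081 for CXCL2.

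Replicate numbers did not pair the libraries throughout: the deviations of same-numbered libraries correlated at 0.751, −0.0881 and −0.451. Not every library correlated best with its own number, as DMSO replicate 2 did so with Tan I replicate 3 (0.758). By the chi-square per gene between the reads of library pairs, DMSO replicate 1 and Tan I replicate 1 were closest (5.89). The closest pair within a group was DMSO replicates 1 and 3 (9.64). With the replicate number as a block, 2 members, 7 other pathway genes and 348 of all genes were called. The 7 differed from those without the block: MYD88 and TNFRSF1B were lost, and CCL2 and CCL4 were gained. Low depth limits BCL3 (29 to 47 reads), TNFRSF1B (22 to 45 reads) and CXCL2 (10 to 40 reads).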
